A study of Mus musculus with 4 samples.

Results

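The genes described here copy the DNA of a dividing cell or supply the building blocks for that copy, and they were followed through the last stages of red cell formation in the mouse fetal liver. They were taken by symbol from a list of 43 genes, of which 37 are in the files under these symbols, out of 19564 gene symbols in all. Orc2, Orc3, Orc4, Orc5, Orc6 and Gins1 were dropped because the files do not hold those symbols. All 37 had at least 1 RPKM in at least 1 library, as had 9942 genes in all. Liver cells of embryonic day 14.5 were stained for TER119, a red cell surface antigen, and for CD71, the transferrin receptor, and separated by flow cytometry. R2 holds proerythroblasts and early basophilic erythroblasts, R3 basophilic ones early and late, R4 mostly polychromatophilic and orthochromatophilic ones, and R5 late orthochromatophilic erythroblasts with reticulocytes, which have lost the nucleus. The sort is the only difference stated between the groups, and RNA was taken straight from the sorted cells. With 1 library each, differences between library preparations cannot be told apart from the sort. The labels give no strain, genotype or treatment, and do not say how many embryos were pooled. Each population was sequenced as 1 library of polyadenylated RNA.

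No p-value is given, because with 1 library per population no difference can be checked against replicates. Where 4 values follow each other with no population named, they belong to R2, R3, R4 and R5 in this order. Values are RPKM, reads scaled to gene length and library size, a scale on which genes of different length can be compared within a library. Ratios are log2 ratios of RPKM + 1, which understate the change of low genes, and a gene is counted as higher or lower when this ratio is 2-fold or more. Globin transcripts took 5.52%, 59.4%, 80.4% and 81.9% of all RPKM, and a larger globin share leaves less for every other gene. The median log2 ratio of all 9942 genes was -1.09 from R2 to R3, -0.77 from R3 to R4 and 0.27 from R4 to R5, and -1.65 over the whole course. Values are therefore also given after scaling each library by the median of its gene ratios, and after removal of the 8 globin genes. The libraries held between 20700000 and 27400000 reads, an estimate from the step size of the values. The 8 erythroid markers were above 1 RPKM in every library. The 6 of them that are not globins summed to 683, 4350, 5050 and 3597 RPKM, and not all had the same course, since Gata1 was at 120, 161, 90.7 and 90.5 RPKM. The 10 granulocyte markers, among them Mpo and Ela2, were all highest in R2, with a summed level of 6127 RPKM there and 426, 234 and 469 in the later libraries, and none was at 0. Their part in the differences between R2 and the later populations was not tested. Macrophage markers summed to 98.0, 56.5, 23.8 and 56.8 RPKM, megakaryocyte markers to 38.2, 43.3, 22.96 and 67.3, lymphoid markers to 21.2, 1.67, 0.64 and 2.05, and hepatocyte markers to 195, 475, 158 and 332. The granulocyte, macrophage, megakaryocyte, lymphoid and hepatocyte sums were thus all lower in R4 than in R3 and higher in R5 than in R4. Their part in these steps was not tested.

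Before a cell copies its DNA, the origin recognition complex, CDC6 and CDT1 load a ring of 6 MCM subunits onto the chromosome, a step called licensing. At the start of S phase this ring, joined by CDC45 and the GINS complex, becomes the helicase that opens the double strand. DNA polymerase alpha with its primase then begins each new strand, polymerases delta and epsilon extend it, and the clamp PCNA, loaded by replication factor C, holds them to the template. Ribonucleotide reductase, thymidylate synthase and thymidine kinase supply deoxynucleotides. Erythroblasts divide several times while they fill with hemoglobin, and stop dividing before they expel the nucleus. Many genes of this machinery are known targets of E2F transcription factors, which act at the passage from G1 into S phase.

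As deposited, the group as a whole kept much of its level from R2 to R3 and lost most of it from R3 to R4. The size of the second drop depends on the scaling. The members' median log2 ratio from R3 to R4 was -1.69 as deposited, -0.70 with median scaling and -1.09 without globins. The median of the 37 levels was 59.8, 32.96, 11.01 and 14.97 RPKM. Relative to its own level in R2, the median member was at 67.7% in R3, at 18.1% in R4 and at 23.7% by R5. Summed over the 37 members, the level was 3585, 2831, 809 and 1007 RPKM. As a share of all RPKM other than globin, the sum was 0.951%, 1.29%, 0.586% and 0.637%, so that on this scale R3 was the highest library. Fewer replicating cells and less RNA of these genes per cell cannot be told apart in bulk samples.

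**Figure D1:**
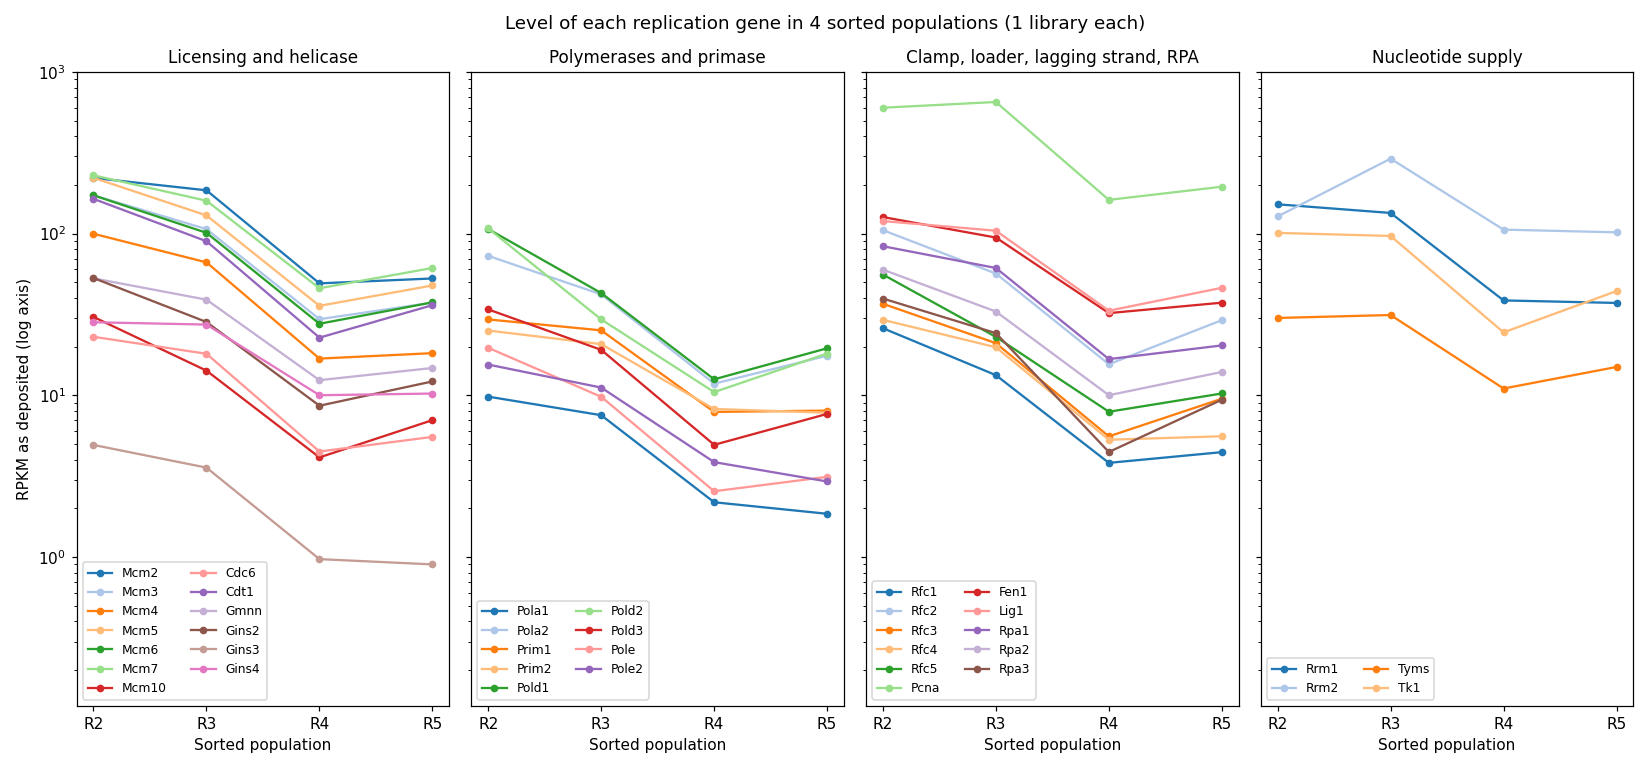
RPKM as deposited (log axis) of each of the 37 members in the 4 sorted populations, 1 library each, in 4 panels by role. Lines join the values of 1 gene. Every line drops between R3 and R4, and Rrm2 stands higher in R3 than in R2, at 291 against 128 RPKM.

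In R3 against R2, 4 of 37 members were at least 2-fold lower, where 55.1% of all genes were, and 1 was at least 2-fold higher, where 3.81% were. The median member had a log2 ratio of -0.54, and 34 of 37 lay above the all-gene median. With median scaling the median member was at 0.30, with globins removed it was at 0.20, and in both cases 34 of 37 lay above the median of all genes. The sign of this step turned with the scaling. As deposited 34 members were lower in R3 than in R2, where 8672 of 9942 genes were. After median scaling 8 members were, against 6836 of 9942 genes, and without globins 13 were, against 7216 of 9934. The 4 members past 2-fold became 0 with median scaling, where 18% of all genes were lower, and 1 with globins removed, where 22.8% were. The members varied more among themselves at this step than at the next. The interquartile range of their log2 ratios was 0.57 here and 0.29 in R4 against R3, and the extremes were -1.83 for Pold2 and 1.18 for Rrm2.

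In R4 against R3, all 37 members were at least 2-fold lower, where 32.1% of all genes were, and 0 were higher, where 0.493% were. The ratios of RPKM ran from 2.52-fold lower for Prim2 to 5.43-fold lower for Rpa3, and the median log2 ratio was -1.69. The 37 members stood below the all-gene median, and below their own level in R3, under all 3 scalings. Of all 9942 genes, 9268 were below their level in R3 as deposited and 5765 with median scaling, and 7920 of 9934 without globins. Past 2-fold there was 1 member with median scaling, where 0.382% of all genes were, and there were 23 with globins removed, where 2.83% were. Since low genes move less on this scale, the step was also read among the 3506 genes with a mean of at least 10 RPKM over the 4 libraries, which hold 33 of the members. Of these genes 57.4% were at least 2-fold lower, against 33 of the 33 members, and 32 of the 33 lay at or under the lower quartile of the genes under each of the 3 scalings. The ratios of this step do not use R2, the library with the high granulocyte markers, but R2 helps to decide which genes are compared. With genes chosen on R3, R4 and R5 alone, an alternative added after seeing the data, 38.5% of all 8310 genes were at least 2-fold lower. All 37 members are among these genes, and the choice of genes cannot change their ratios, so only the share of all genes could move.

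In R5 against R4 no member passed 2-fold in either direction, where 3.97% of all genes were higher and 0.604% lower. As deposited 31 of 37 members stood above R4 in R5 and 6 below it, where 2292 of 9942 genes were below it. The median log2 ratio was 0.33 beside 0.27 for all genes. The marker sums of the other cell types were also higher in R5 than in R4, and their part in this step was not tested. With median scaling 19 members were lower, where 4229 of 9942 genes were, and the median was -0.028. As deposited, 95% intervals from estimated read counts, which cover counting error only, lay above 0 for 28 members, below 0 for 2 (Pole2 and Rrm2) and held 0 for 7. Over the whole course, R5 against R2, 35 of 37 members were at least 2-fold lower, where 76.9% of all genes were, and 0 were higher, where 2.74% were. The median was -1.99 beside -1.65 for all genes, and 8 of 37 members lay above the all-gene median. After median scaling the medians were closer, at -0.46 for members and -0.42 for all genes, with 15 members above. Without globins they were -0.79 and -0.68, with 13 members above. With median scaling 0 members were lower, where 13.7% of all genes were, and 1, Rrm2, was higher, where 9.42% were. With globins removed 7 were lower, where 29.8% of all genes were, and 0 higher, where 7.35% were. R5 was also set against R3 in place of R2, a comparison added after seeing the data. As deposited 34 of 37 members were at least 2-fold lower in R5, where 13.1% of all genes were, or 15.7% with genes chosen without R2. With median scaling 7 members were lower, where 98 of 9942 genes were, and without globins 14, where 293 of 9934 were.

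The order of the members was much the same in every library. Spearman's rho of their levels was 0.938 for R2 with R3, 0.920 for R2 with R4, 0.989 for R3 with R4 and 0.979 for R4 with R5, over 37 genes that share each library and are not independent replicates. Pcna was the highest and Gins3 the lowest of the 37 in all 4 libraries. Rrm2 was in place 9 in R2 and in place 2 in R3, R4 and R5.

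The promoters of the members were also read for the letters that E2F factors bind. The windows reach from 250 bases before to 50 after the start of the gene and come from RefSeq on build GRCm38.p6, whose table matched 30 of the 37 members. The E2F letters searched on both strands were TTTCCCGC, TTTCGCGC, TTTGCCGC and TTTGGCGC, matches of which can overlap where they run in opposite directions. They stood in the windows of 13 of 30 member genes, or 43.3%, against 5.09% of the 6931 genes with at least 1 RPKM that have a window and 2.61% of all 27025 genes in the table. Of 56 other replication and nucleotide genes 12 held them, or 21.4%, and of 35 mitosis genes 3, or 8.57%. Both strands were read for the other letters too. CCAAT, the box of the factor NF-Y, stood in 18 of the 30 member genes, or 60.0%, against 43.6% of expressed genes and 77.1% of mitosis genes. TTTGAA, the CHR element known from mitosis genes, stood in 4 of the 30, or 13.3%, against 13.9% of expressed genes and 74.3% of mitosis genes. A match is a description of the letters, not a bound site.

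Shown here are the 180 bases before the start of 6 members, 5 of them with E2F letters before the start and Rrm2, which had the highest ratio in R3 against R2, for contrast. Capitals mark the E2F letters and CCAAT on either strand, and each stretch reads 5′ to 3′ toward the gene.
Mcm5, chr8:75109329-75109508, plus strand: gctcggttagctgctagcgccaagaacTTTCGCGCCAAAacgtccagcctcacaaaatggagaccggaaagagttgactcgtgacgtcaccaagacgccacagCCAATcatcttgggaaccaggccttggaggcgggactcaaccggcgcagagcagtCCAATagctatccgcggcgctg
Mcm6, chr1:128359706-128359885, minus strand: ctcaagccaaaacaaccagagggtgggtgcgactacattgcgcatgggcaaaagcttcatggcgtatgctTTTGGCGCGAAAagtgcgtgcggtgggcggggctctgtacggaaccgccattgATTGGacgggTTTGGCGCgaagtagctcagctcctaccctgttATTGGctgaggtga
Mcm7, chr5:138171884-138172063, minus strand: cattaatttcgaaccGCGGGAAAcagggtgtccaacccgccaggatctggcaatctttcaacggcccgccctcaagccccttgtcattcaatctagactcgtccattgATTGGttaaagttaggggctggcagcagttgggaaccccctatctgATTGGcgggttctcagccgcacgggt
Cdc6, chr11:98907971-98908150, plus strand: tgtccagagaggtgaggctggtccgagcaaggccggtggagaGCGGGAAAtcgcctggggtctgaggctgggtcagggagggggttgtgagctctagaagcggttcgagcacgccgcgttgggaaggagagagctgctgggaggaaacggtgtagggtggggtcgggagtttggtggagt
Gins3, chr8:95633379-95633558, plus strand: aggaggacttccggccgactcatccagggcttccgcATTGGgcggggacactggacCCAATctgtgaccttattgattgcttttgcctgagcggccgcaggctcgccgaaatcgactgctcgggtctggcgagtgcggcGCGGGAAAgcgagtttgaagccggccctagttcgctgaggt
Rrm2, chr12:24708074-24708253, plus strand: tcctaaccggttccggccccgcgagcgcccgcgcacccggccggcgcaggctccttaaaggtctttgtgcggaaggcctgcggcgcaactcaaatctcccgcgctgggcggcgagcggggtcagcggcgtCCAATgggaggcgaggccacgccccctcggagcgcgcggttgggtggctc
In Mcm5 and Mcm6 matches on opposite strands overlap in 1 run. Mcm6 holds 3 E2F matches in this stretch, Mcm5 holds 2, and Mcm7, Cdc6 and Gins3 hold 1 each. Rrm2 has 1 CCAAT box and no match to the E2F letters in its window, which says only that these letters are not there. Of the 13 genes with the letters, 7 held them before the start and 6 only past it. The 13 had a median log2 ratio of -0.69 in R3 against R2 and -1.76 in R4 against R3, and the 17 without them had -0.44 and -1.63. Any part of these letters in the steps was not tested.

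**Figure D2:**
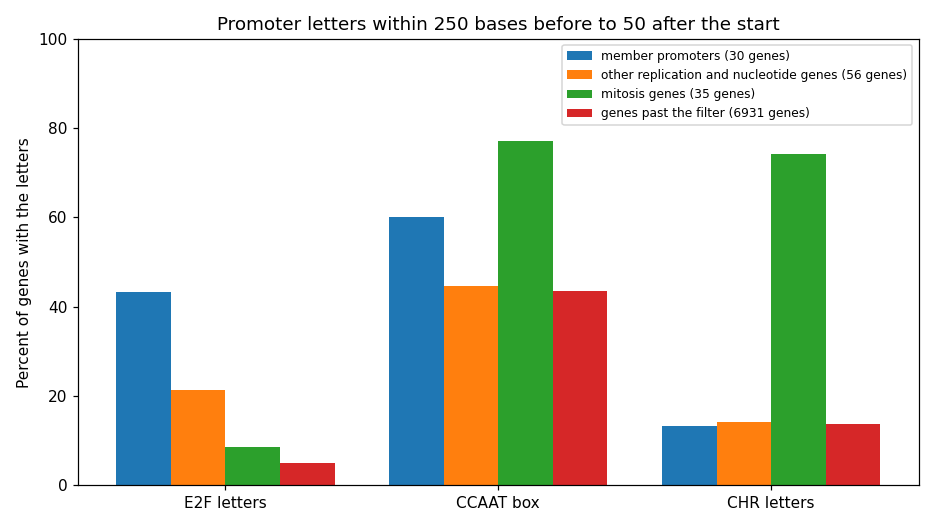
Percent of genes whose promoter window (250 bases before to 50 after the start) holds the E2F letters, a CCAAT box or the CHR letters, for 4 sets of genes. E2F letters are in 43.3% of member genes and 5.09% of expressed genes, and CHR letters in 74.3% of mitosis genes and 13.3% of member genes.

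Within licensing, the genes of the MCM ring moved by similar amounts from R3 to R4. The 6 subunits of the MCM ring stood at 99.8 RPKM for Mcm4 up to 229 for Mcm7 in R2, and at 16.9 for Mcm4 up to 49.2 for Mcm2 in R4. Mcm2 was at 221, 185, 49.2 and 52.8 RPKM. Mcm5, at almost the same level in R2, was at 221, 130, 35.7 and 47.8 RPKM. Mcm2 was thus above Mcm5 in every library after R2. Mcm3 was at 172, 107, 29.6 and 37.4 RPKM, Mcm6 at 172, 101, 27.7 and 37.6, and Mcm7 at 229, 160, 45.9 and 61.3. The exons of Mcm7 overlap those of Ap4m1 and Cops6 in the annotation, so some of its reads may belong to them. From R2 to R3 the 6 subunits were between 1.19-fold and 1.71-fold lower as deposited, while their median log2 ratio was 0.24 with median scaling. From R3 to R4 they were between 3.48-fold and 3.94-fold lower, a narrow range at the step where the group dropped. The ratio of the highest to the lowest subunit was 2.30, 2.79, 2.92 and 3.36.

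Among the loading factors, Cdt1 was at 164, 89.7, 22.7 and 36.1 RPKM. Gmnn encodes geminin, which binds CDT1 and blocks a repeat of loading, and was at 52.9, 39.0, 12.4 and 14.8 RPKM. The ratio of Gmnn to Cdt1 within a library, which no rescaling of the library can move, was 0.322, 0.435, 0.546 and 0.409. The inhibitor stood highest relative to its target in R4 and lowest in R2, and in every library Cdt1 had the higher level. Cdc6 was at 23.0, 18.1, 4.49 and 5.53 RPKM. Mcm10, which helps to activate the helicase, was at 30.5, 14.2, 4.13 and 7.02 RPKM, and was the 1 licensing gene past 2-fold in the first step. The ratio of Mcm10 to Mcm2 was 0.138, 0.0767, 0.0839 and 0.133, so it was lower in the middle populations than at either end.

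Of the GINS genes, Gins2 was at 53.1, 28.4, 8.62 and 12.2 RPKM, and Gins4 at 28.3, 27.4, 10.01 and 10.3. Gins3 was at 4.93, 3.57, 0.97 and 0.90 RPKM, and rested on about 51 reads in R5, the fewest of any member in any library. The products form 1 complex, and the ratio of Gins3 to Gins2 was between 0.0739 in R5 and 0.126 in R3. The subunits of the origin recognition complex appear in the files under older symbols and are not counted as members. Orc6l, for Orc6, was at 39.4, 33.1, 9.99 and 8.89 RPKM. Orc5l was at 18.7, 11.7, 3.81 and 3.74 RPKM, Orc2l at 16.8, 8.09, 2.34 and 2.55, Orc3l at 5.29, 2.33, 0.73 and 0.94, and Orc4l at 2.28, 0.93, 0.59 and 0.34. By the ratio of RPKM + 1, 0 of these 5 genes were at least 2-fold lower from R2 to R3, where 55.1% of all genes were. From R3 to R4 there were 3, where 32.1% were. The added 1 RPKM weighs on such low genes. By RPKM alone Orc2l, Orc3l and Orc4l were 2.08-fold, 2.27-fold and 2.45-fold lower from R2 to R3. The 3 genes lower from R3 to R4 became 0 after median scaling, where 0.382% of all genes were lower, and 1 without globins, where 2.83% were.

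Polymerase genes held the members with the lowest ratios at the first step. Pold1 and Pold2 encode the catalytic and a smaller subunit of polymerase delta. Pold1 was at 107, 42.9, 12.6 and 19.5 RPKM, and Pold2 was at 108, 29.5, 10.5 and 18.1. Pold2 was 3.65-fold lower in R3 than in R2, the lowest ratio of any member at that step, with a log2 ratio of -1.83 as deposited and -0.96 with median scaling. Both genes were above R4 in R5, by 1.56-fold for Pold1 and 1.73-fold for Pold2. Pold3, another subunit of the same enzyme, was at 34.0, 19.1, 4.94 and 7.67 RPKM, so the ratio of Pold3 to Pold1 was 0.318, 0.446, 0.394 and 0.393.

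Polymerase epsilon extends the leading strand. Pole, its catalytic subunit, was at 19.7, 9.79, 2.55 and 3.13 RPKM, and Pole2 was at 15.5, 11.2, 3.86 and 2.93. The catalytic subunit was above its partner in R2 and R5 and below it in R3 and R4, with a ratio of Pole2 to Pole of 0.787, 1.14, 1.51 and 0.936. The primase genes kept most of their level in R3. Prim1, the catalytic subunit, was at 29.5, 25.2, 7.89 and 8.04 RPKM and Prim2 at 25.2, 20.7, 8.23 and 7.80. The ratio of Prim2 to Prim1 stayed between 0.822 and 1.04, the narrowest range of the 14 pairs computed. Pola1 encodes the catalytic subunit of polymerase alpha, and was at 9.81, 7.53, 2.18 and 1.85 RPKM. Its partner Pola2 was at 72.8, 42.1, 11.8 and 17.6 RPKM, which is between 5.41 and 9.50 times the level of Pola1.

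Pcna, the sliding clamp, was at 600, 651, 162 and 195 RPKM. It made up 16.7% of the members' summed level in R2 and 23.0% in R3. From R3 to R4 it was 4.03-fold lower, a log2 ratio of -2.00. The annotation names the pseudogenes Pcna-ps1 and Pcna-ps2, so the level of Pcna is uncertain where reads fit more than 1 copy. The same holds for Tyms, which has the copy Tyms-ps.

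The clamp loader genes were all lower at the first step as deposited, from 1.48-fold for Rfc4 to 2.43-fold for Rfc5. Rfc5 was at 55.8, 23.0, 7.91 and 10.3 RPKM, which made it the 1 gene among the clamp, loader, lagging-strand and RPA genes past 2-fold in R3 against R2. Rfc4 was at 29.3, 19.8, 5.31 and 5.58 RPKM, Rfc3 at 36.8, 21.0, 5.57 and 9.52, and the large subunit gene Rfc1 at 26.0, 13.3, 3.82 and 4.45. Rfc2 was at 105, 56.6, 15.6 and 29.1 RPKM, and its exons overlap those of Lat2 in the annotation. Exons of Rfc4 overlap Eif4a2, those of Rfc5 overlap Wsb2, and 8 further members outside this complex share bases with a neighbour; whether the counting used strand is not stated in the labels. These subunits share 1 complex, yet Rfc2 was 1.87-fold higher in R5 than in R4 while Rfc4 was 1.05-fold higher.

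Fen1 removes the primer flaps of the lagging strand and Lig1 seals the nicks. Fen1 was at 127, 94.5, 32.2 and 37.4 RPKM, and Lig1 at 119, 104, 33.4 and 46.2. Relative to Pcna in the same library, Fen1 stood at 0.211, 0.145, 0.199 and 0.192, and Lig1 at 0.199, 0.160, 0.206 and 0.237, both lowest in R3. RPA coats single-stranded DNA. Rpa1 was at 83.5, 61.3, 16.7 and 20.3 RPKM and Rpa2 at 59.8, 32.96, 10.01 and 13.9. Rpa3, the smallest subunit, was at 39.7, 24.2, 4.46 and 9.39 RPKM. Its ratio of RPKM was 5.43-fold lower from R3 to R4 and 2.11-fold higher from R4 to R5, the greatest of any member at each of these steps. The ratio of RPKM + 1 at the last step stayed under 2-fold. Both extremes use the R4 value of Rpa3, which rested on about 82 reads. The 95% counting intervals on the log2 scale were -2.80 to -2.10 from R3 to R4 and 0.66 to 1.49 from R4 to R5.

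Among the nucleotide supply genes Rrm2 stood apart from all other members at the first step. Rrm2, the small subunit of ribonucleotide reductase, which is made in S phase, was at 128, 291, 106 and 102 RPKM. It was 2.28-fold higher in R3 than in R2, the 1 member past 2-fold upward, with a log2 ratio of 1.18 as deposited, 2.05 after median scaling and 1.95 without globins. Rrm1, the large subunit of the same enzyme, was at 152, 134, 38.6 and 37.2 RPKM. The ratio of Rrm2 to Rrm1 was 0.841, 2.17, 2.74 and 2.73, the widest range of the 14 pairs, and the small subunit passed from the lower to the higher of both between R2 and R3.

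Thymidylate synthase, encoded by Tyms, makes the thymidine nucleotide anew, and thymidine kinase, encoded by Tk1, recovers thymidine. Tyms was at 30.1, 31.4, 11.01 and 14.97 RPKM, and Tk1 at 101, 96.7, 24.5 and 44.1. Counting intervals of both held no change from R2 to R3 as deposited, with log2 ratios of 0.059 and -0.062, and with median scaling the ratios were 0.90 and 0.81. From R3 to R4 Tk1 was 3.95-fold lower and Tyms 2.85-fold. The 4 nucleotide genes had a median log2 ratio of -0.0017 in R3 against R2, beside -0.58 for licensing genes, -0.78 for polymerase genes and -0.69 for clamp and RPA genes. In R4 against R3 the medians of the same role groups were -1.61, -1.80, -1.56 and -1.72. The nucleotide median thus lay above the other 3 at the first step and within their range at the second. The higher median of the 4 nucleotide genes at the first step includes Rrm2, and Pcna, with a log2 ratio of 0.12, lay above the other 3 of them. These differences between small groups of genes were not tested.

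**Figure D3:**
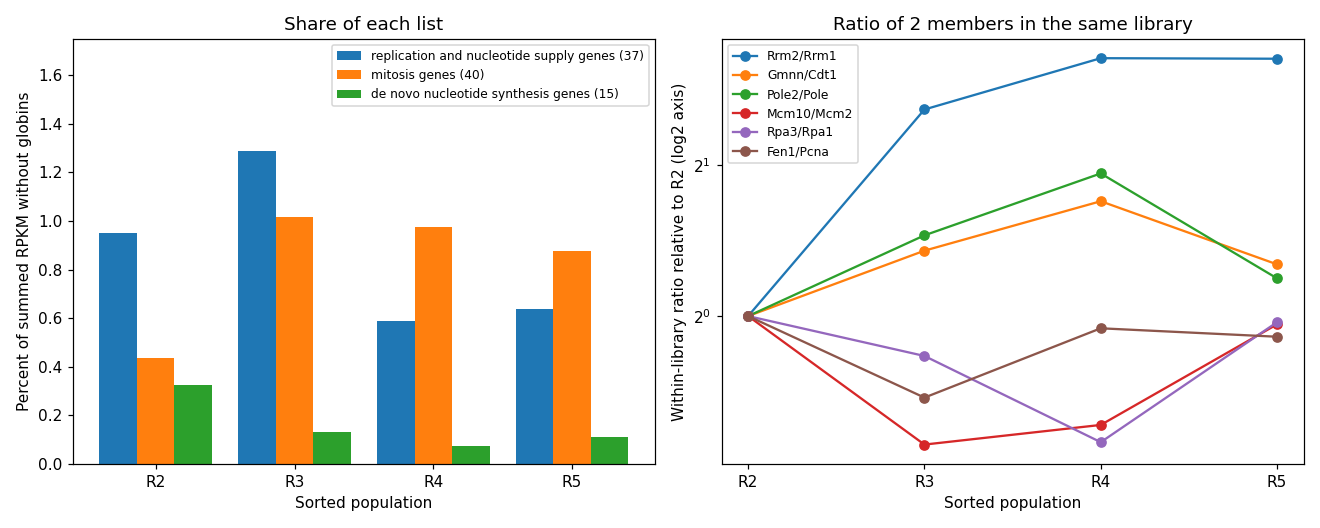
Left, summed RPKM of 3 gene lists as a percent of all RPKM other than globin in each population. Right, ratios of 2 members within the same library, divided by their value in R2 (log2 axis). The members' share is highest in R3 at 1.29% and the ratio of Rrm2 to Rrm1 climbs above its R2 value in each later library.

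Genes of the same pathway outside the 37 gave a wider view. Of 65 listed, 64 are in the files, 5 of them under an older symbol, and 63 had at least 1 RPKM somewhere. In R3 against R2, 29 of the 63 were at least 2-fold lower, where 55.1% of all genes were, and 1 higher, with a median of -0.82. In R4 against R3, 51 were lower, where 32.1% of all genes were, and 0 higher, with a median of -1.33. With median scaling 14 were lower at the first step and 0 at the next, where 18% and 0.382% of all genes were. Without globins the counts were 16 and 16, where 22.8% and 2.83% of all genes were lower. The list was also divided by role, a division made after the values were seen. All 15 genes of de novo purine, pyrimidine and one-carbon synthesis were at least 2-fold lower in R3 than in R2, where 55.1% of all genes were, with a median log2 ratio of -2.33, against 7 of 38 genes of the fork, licensing and chromatin assembly with a median of -0.47 and 7 of 10 other enzymes of deoxynucleotide metabolism with a median of -1.46. With median scaling the counts were 10 of 15, 1 of 38 and 3 of 10, where 18% of all genes were lower. The difference between these role groups has no replicate to test it.

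Cad, which starts pyrimidine synthesis, was at 133, 18.5, 6.72 and 12.9 RPKM. Mthfd1, of one-carbon metabolism, was at 157, 25.1, 10.3 and 19.02 RPKM. Both had already lost most of their R2 level in R3, at 13.96% and 15.98% of it, where the median replication member kept 67.7%. As a share of RPKM other than globin the 15 genes took 0.323%, 0.133%, 0.0752% and 0.109%. Dck, a kinase that recovers deoxynucleosides and is named after its values were seen, was at 18.1, 41.2, 15.9 and 10.1 RPKM, the 1 gene of the 63 past 2-fold upward in R3. Rnaseh2c, with the highest mean of this list, was at 204, 156, 81.9 and 108 RPKM. Uhrf1, which brings the DNA methyltransferase to copied DNA, was at 191, 146, 41.6 and 47.4. Asf1b, a histone chaperone, was at 39.3, 65.8, 26.8 and 28.6 RPKM, Ccna2, the S phase cyclin, at 94.8, 148, 76.7 and 59.2, and Ddb1 at 169, 89.1, 56.8 and 53.3.

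Mitosis genes, 40 in all, were set beside the replication genes because both belong to dividing cells. In R3 against R2, 4 of the 40 passed 2-fold upward, where 3.81% of all genes did, and 0 downward, where 55.1% did, and their median was 0.24. In R4 against R3, 22 were lower, where 32.1% of all genes were, and the median was -1.03, beside -1.69 for the 37 members. These counts depend on the scaling. At the first step 25 mitosis genes passed 2-fold upward after median scaling, where 833 of 9942 genes did, and 18 without globins, where 776 of 9934 did. At the next step 0 mitosis genes were lower under either, where 0.382% and 2.83% of all genes were. The medians in R4 against R3 were 0.0054 for mitosis genes and -0.70 for the members after median scaling, and -0.39 and -1.09 without globins. The summed level of the members was 2.19, 1.27, 0.602 and 0.726 times that of the mitosis genes, a ratio that does not move with the scaling of a library. Ube2c alone is a large part of the mitosis sum. Without it, an alternative added after seeing the data, the ratio was 2.38, 1.55, 0.863 and 1.07, again lowest in R4 and nearly level in R5. With Pcna, the highest member, left out as well, the ratio was 1.98, 1.20, 0.691 and 0.863, lowest in R4 and below 1 in R5. The difference between the lists has no replicate to test it. Mki67, a marker of dividing cells, was at 69.8, 196, 136 and 62.0 RPKM, and Ube2c, which acts at the exit from mitosis, at 131, 411, 407 and 446. Cdca3 was at 78.5, 130, 70.7 and 101 RPKM, Ncapd2, a condensin subunit, at 131, 127, 53.2 and 61.8, and Nusap1 at 11.7, 32.3, 28.6 and 19.8. At the low end were Mad2l1, a spindle checkpoint gene, at 23.4, 13.6, 5.63 and 4.87 RPKM and Ttk at 8.67, 5.09, 2.29 and 1.91.

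**Figure D4:**
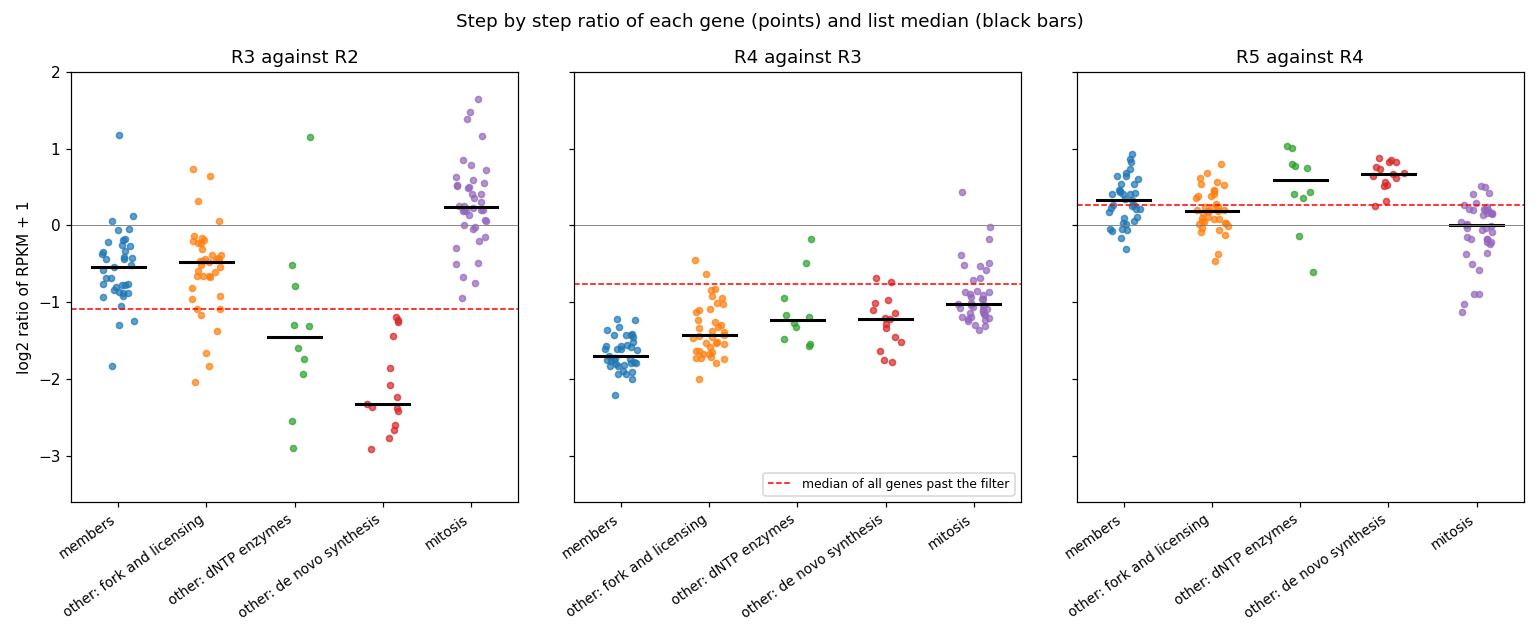
Log2 ratio of RPKM + 1 of each gene (points) at the 3 steps for the 37 members, the other pathway genes by role and the mitosis genes. Black bars are list medians and the dashed line is the median of all 9942 genes. In R4 against R3 all 37 members lie below the dashed line, and in R3 against R2 the de novo synthesis genes have the lowest median, -2.33.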

How the data were processed

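The deposited files hold RPKM values with 2 decimals for 19564 gene symbols, made by the authors from polyadenylated RNA of 4 sorted populations, 1 library each. The build is mm9, per the submitters' processing notes. Which aligner, counting program, annotation and gene length the authors used is not given in the sources used here. Members, other lists and comparisons were chosen with earlier results of these data known, so none is independent support. All members are named, and from the other lists the 4 highest means and the 2 highest and 2 lowest R5 against R2 ratios.

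The 9942 genes that reached 1 RPKM in some library were kept, and log2 ratios of RPKM + 1 were taken (Python 3.11.15, pandas 2.3.3, numpy 2.4.6). Alternatives were a pseudocount of 0.1 or 5 RPKM, leaving out the filter or raising it to 5 RPKM, median scaling over 2745 genes with at least 5 RPKM in every library, and removal of globins. Depth was estimated from values that are whole multiples of 1 number per library, and reads per member from that depth and exonic length in GENCODE (GRCm38), which can overstate them. Intervals are exact 95% binomial ones (scipy 1.17.1). Exons of 11 members overlap another gene's. The rule that counts a gene as 2-fold higher or lower was tried on simulated counts with set changes and counting error only. The simulation held no globin shift, so it says nothing about the scaling or about the differences between the populations. A ratio of Orc6 to Orc2 was planned and not computed, since neither symbol is in the files.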

Additional observations from a re-analysis of the deposited data

How the results depend on the processing

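No paired analysis was possible because each population has 1 library. The count of 37 of 37 members lower in R4 than in R3 remained between 32 and 37 under both pseudocounts and both filters. A filter decides only which genes are kept and cannot change the ratio of a member. Pseudocounts of 0.1 and 5 RPKM moved the median log2 ratio over the whole course, R5 against R2, from -1.99 to -2.07 and -1.63, and at the step from R3 to R4 from -1.69 to -1.79 and -1.34. With 0.1 RPKM, 1 member passed 2-fold upward from R4 to R5. With median scaling the median was -0.46 over the whole course, 0.30 from R2 to R3, -0.70 from R3 to R4 and -0.028 from R4 to R5. Counts of lower members in the first 3 of these became 0, 0 and 1, and 1 member was higher in R5 than in R2. With globins removed the medians were -0.79, 0.20, -1.09 and 0.14, and the counts lower in the first 3 became 7, 1 and 23. R2 was the highest library of 34 members as deposited, 8 after median scaling and 13 without globins, and of 86.2%, 62.4% and 69.7% of all genes. R4 was the lowest of 31, 16 and 26 members, and of 73.2%, 37.3% and 56.1% of all genes. With R3 in place of R2, the median in R5 against R3 was -1.33 as deposited, -0.66 with median scaling and -0.90 without globins. For R5 against R2 the sign turned with median scaling for 5 members, Gins4 (0.13), Lig1 (0.23), Rrm2 (1.26), Tyms (0.56) and Tk1 (0.40), and with globins removed for 3, Rrm2 (0.92), Tyms (0.23) and Tk1 (0.057). The low level of Gins3 limits its ratios most: the widest counting interval, for R5 against R4, spanned 1.08 on the log2 scale.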
